A study of Homo sapiens with 15 samples.

Results

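The genes described here are 34 genes of the NF-κB system, chosen by name from the 57820 gene identifiers in the expression tables. They comprise the DNA-binding subunits, the inhibitors that hold them in the cytoplasm, and genes that NF-κB is known to induce. The rule takes gene names and no expression value. The members and the lists below were however chosen with earlier results of these data known. Shares above the background are therefore descriptions of these libraries and no independent test. RNA from 15 libraries from established human AML lines, MOLM-13, HL-60 and U937, was measured after lentiviral transduction with the empty vector pLKO or with an shRNA against RNF5 (shRNF5), an E3 ubiquitin ligase of the endoplasmic reticulum, to ask which transcripts change upon RNF5 knockdown (RNF5-KD). HL-60 was represented by 3 libraries per construct, U937 by 2 per construct, and MOLM-13 by 3 with pLKO and 2 with shRNF5. The labels give a harvest at 7 days, against 5 days in the series design, and which RNF5 hairpin was sequenced is not given in the sources used here. MOLM-13 carries the MLL-AF9 fusion, U937 is a monocytic line and HL-60 is a promyelocytic line, and each stands for 1 established line. Nothing in the labels says that replicates came from separate transductions, so p-values measure the spread between these libraries, which may be technical.

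NF-κB is a family of dimers built from RELA, REL, RELB and the products of NFKB1 and NFKB2. IκB proteins keep the dimers in the cytoplasm until receptors such as those for TNF and IL-1 activate the IκB kinase, which marks IκB for destruction by the proteasome. The freed dimers bind κB sites and induce cytokines, adhesion molecules and survival genes, together with inhibitors such as NFKBIA and TNFAIP3 that end the response. In myeloid cells the pathway is known for inflammatory cytokine production, and in AML for survival signalling.

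The promoters of 6 members are shown because the results below turn on these genes. They are NFKBIA and GADD45B, which responded in HL-60, and PTGS2, SDC4, CD83 and CD44, which each responded in 2 lines. Each line gives the 250 bases before the RefSeq start site in GRCh38.p14, 5′ to 3′ on the strand of the gene. Capitals mark the letters GGGA, any 4 bases and CC, read on either strand, a loose form of the κB site. A stricter consensus, also read on either strand, is GGG, A or G, any 2 bases, C or T at the next 2, and CC. The marked letters of PTGS2 and SDC4 fall outside it, and ggggaattcc in the SDC4 window fits it but is unmarked. The windows are chr14:35404750-35404999 (reverse strand) for NFKBIA, chr19:2475877-2476126 for GADD45B, chr1:186680424-186680673 (reverse strand) for PTGS2 and chr20:45348425-45348674 (reverse strand) for SDC4. Those of CD83 and CD44 are chr6:14117522-14117771 and chr11:35138921-35139170, and a second CD83 window held no match.
NFKBIA: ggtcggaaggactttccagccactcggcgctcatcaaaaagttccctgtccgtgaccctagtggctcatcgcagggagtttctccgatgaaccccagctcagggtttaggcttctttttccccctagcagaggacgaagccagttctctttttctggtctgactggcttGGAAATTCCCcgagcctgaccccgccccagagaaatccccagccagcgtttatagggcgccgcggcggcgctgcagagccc
GADD45B: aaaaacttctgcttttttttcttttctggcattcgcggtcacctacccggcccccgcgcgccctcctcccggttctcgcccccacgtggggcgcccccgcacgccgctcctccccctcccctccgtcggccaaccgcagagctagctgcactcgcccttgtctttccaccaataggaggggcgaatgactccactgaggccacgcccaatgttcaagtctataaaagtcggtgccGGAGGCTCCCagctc
PTGS2: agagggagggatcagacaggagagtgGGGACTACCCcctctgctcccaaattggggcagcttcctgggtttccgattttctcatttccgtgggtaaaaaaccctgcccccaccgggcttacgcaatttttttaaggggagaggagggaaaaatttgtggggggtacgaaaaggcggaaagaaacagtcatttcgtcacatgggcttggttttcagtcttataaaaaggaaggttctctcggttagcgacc
SDC4: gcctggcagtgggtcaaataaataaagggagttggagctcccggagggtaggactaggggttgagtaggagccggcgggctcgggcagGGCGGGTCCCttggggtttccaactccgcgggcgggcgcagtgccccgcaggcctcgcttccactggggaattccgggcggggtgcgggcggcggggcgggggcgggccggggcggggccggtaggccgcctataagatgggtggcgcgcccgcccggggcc
CD83: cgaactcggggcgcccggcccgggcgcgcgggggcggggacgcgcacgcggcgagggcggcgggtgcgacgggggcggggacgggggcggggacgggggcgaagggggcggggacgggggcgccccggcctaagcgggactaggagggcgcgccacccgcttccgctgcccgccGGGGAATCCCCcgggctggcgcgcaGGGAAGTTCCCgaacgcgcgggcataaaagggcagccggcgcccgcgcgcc
CD44: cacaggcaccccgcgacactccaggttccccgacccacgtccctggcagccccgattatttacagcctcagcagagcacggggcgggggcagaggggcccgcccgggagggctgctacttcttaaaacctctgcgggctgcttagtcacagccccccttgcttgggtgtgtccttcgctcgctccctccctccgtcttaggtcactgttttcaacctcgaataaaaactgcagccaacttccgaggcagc
The match began 81 bases before the start in NFKBIA, 15 in GADD45B, 224 in PTGS2 and 162 in SDC4. CD83 held stretches beginning 76 and 51 bases before its start, each read on both strands as overlapping matches, whereas the CD44 window held none. RefSeq windows that reach 50 bases past the start were given for 30 of the 34 members. Of these, 22 (73.3%) had a match in at least 1 window, beside 29.0% of 27305 genes in the same table. Counted by window, 31 of 53 member windows (58.5%) and 25.6% of 35116 windows held a match. A match was found in 12 of 17 members that responded in some line and in 10 of 13 that did not. By the stricter consensus, 16 of the 30 members (53.3%) had a match, beside 13.3% of genes. These were 10 of the 17 that responded and 6 of the 13 that did not, so the order of these shares depended on the motif. A match is a description of letters and does not show that NF-κB binds there.

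The authors deposited normalized read counts, scaled within each line and rounded, with genes that failed their filter listed at 0. Reads counted per library, inferred from the steps between rounded values, ranged from 9720000 to 63800000. In MOLM-13 the shRNF5 libraries (24400000 and 63800000 reads) were deeper than the pLKO libraries (9720000 to 15300000), so depth and construct cannot be told apart in that line. RNF5, the target, had 1223, 1017 and 1020 with pLKO and 76 and 81 with shRNF5 in MOLM-13, 648 and 843 against 46 and 74 in U937, and 506, 689 and 545 against 37, 133 and 43 in HL-60. It fell in every line, with log2 fold changes of -3.77 (limma adjusted p = 0.000336) in MOLM-13, -3.64 (adjusted p = 0.00287) in U937 and -3.25 (adjusted p = 0.00125) in HL-60. The share of genes with a wide replicate range differed between groups. Such a range tends to grow with the number of libraries, 3 in MOLM-13 pLKO and HL-60 shRNF5 and 2 in U937 pLKO and MOLM-13 shRNF5. Among genes with a mean of at least 50, the highest library exceeded the lowest by over 1.5 times for 32.3% of genes in MOLM-13 pLKO and 28.6% in U937 pLKO, and for 3.92% in MOLM-13 shRNF5. Of the members, 13 of 32, 10 of 28 and 3 of 33 did so in these groups, and in HL-60 shRNF5 15 of 30 did (beside 21.5% of all genes). All 6 haematopoietic and myeloid markers were above 0 in every group, and T cell, erythroid and epithelial markers were at 0. Of 6 monocyte and macrophage markers, U937 and MOLM-13 each had 3 above 0, and HL-60 had 1. CD14, CD68 and MRC1 were at 0 in U937, although it is a monocytic line. The 3 markers listed for MOLM-13 with its MLL-AF9 fusion include HOXA9 and MEIS1, which were at 0 in HL-60. Their sum was 15389 to 18215 in U937 pLKO, above the 5617 to 7327 of MOLM-13 pLKO. Each line was normalized separately, so this was not tested. Of 3 B cell markers, 2 were above 0 in U937 (summed 120 to 126 in pLKO and 65 to 74 in shRNF5), 1 in HL-60 (CD79A, 22 to 34 and 38 to 44) and 0 in MOLM-13. One of 2 fibroblast markers, COL1A1, was above 0 in U937 only, with 39 to 234 in pLKO and 15 to 29 in shRNF5. Promyelocyte granule genes (4 markers) summed to 118645 to 148395 in HL-60 pLKO and 168896 to 257044 in HL-60 shRNF5, and to 23357 to 28259 and 8611 to 8735 in U937. The part of this shift in the results below was not tested. In bulk RNA, fewer cells with a transcript and less transcript per cell cannot be told apart.

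The basal levels of the members differed between lines. Levels are given here per 1000000 of a library's summed values, and since the authors normalized each line separately they are set side by side without a test. CD44, the hyaluronan receptor, stood at 188 to 212 in MOLM-13 pLKO and 187 to 215 in U937 pLKO, against 0.122 to 0.438 in HL-60 pLKO. TNF, the inflammatory cytokine that is both a target and an activator of NF-κB, stood at 50.2 to 115 in MOLM-13, 8.63 to 20.9 in HL-60 and 0.999 to 1.09 in U937. The 3 lines thus had separate TNF ranges, with U937 lowest, whereas CD44 overlapped between MOLM-13 and U937. BIRC3, an inhibitor of apoptosis and a component of TNF receptor complexes, was highest in HL-60 (21.3 to 29.0), with 2.73 to 3.12 in U937 and 0.803 to 1.64 in MOLM-13. NFKB2, which encodes the precursor p100, was highest in U937 (58.1 to 70.7), with 17.6 to 26.5 in MOLM-13 and 14.2 to 18.4 in HL-60, and the ranges of the last pair overlapped. NFKBIA ranges overlapped between MOLM-13 and both other lines (27.7 to 42.1 in MOLM-13, 28.9 to 33.2 in U937, 19.6 to 32.5 in HL-60). NFKBIZ and IER3 were listed at 0 in HL-60, and CD40 in U937 and HL-60. Over the 34 members, the pLKO ranges of MOLM-13 lay above those of U937 for 7 and below for 13, where 31.9% and 39.2% of genes above 0 in either line did so. They lay above those of HL-60 for 15 and below for 7 (35.3% and 31.9% of genes), and U937 lay above HL-60 for 16 and below for 9 (44.9% and 33.5%). Separate ranges between lines were thus common among all genes.

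**Figure D1:**
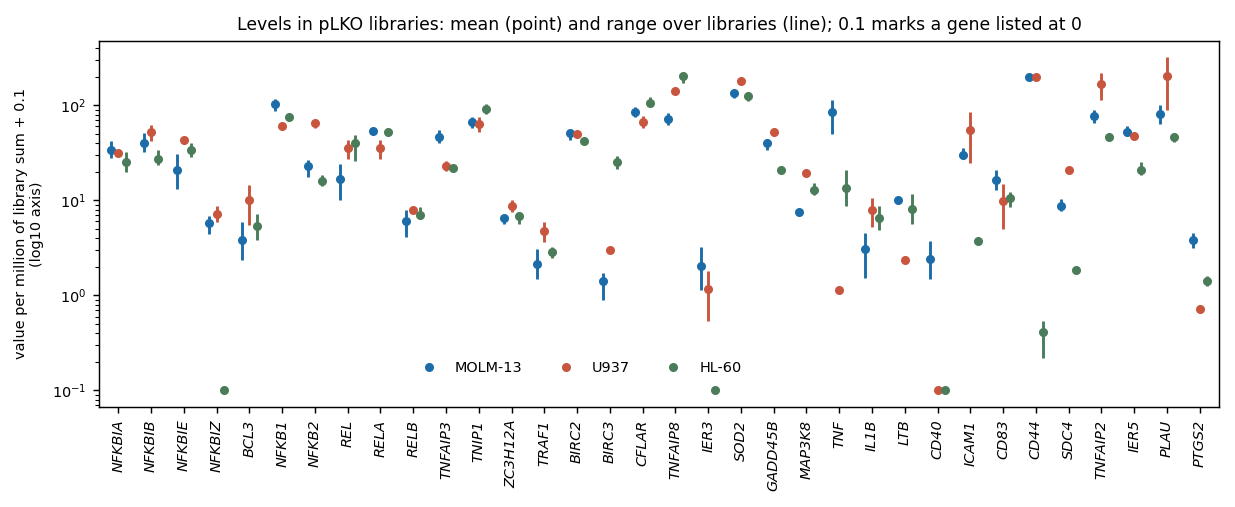
Levels of the 34 members in pLKO libraries, as value per 1000000 of the library sum plus 0.1 on a log10 axis, with the mean as a point and the range over libraries as a line (n = 3, 2 and 3 for MOLM-13, U937 and HL-60). CD44 in HL-60 and TNF in U937 lie far below the other lines, and BIRC3 in HL-60 lies above them.

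Upon RNF5-KD, 14 of 31 tested members changed in HL-60 (45.2%, beside 25.9% of all 12570 genes), 5 of 33 in U937 (15.2%, beside 15.7% of 13165) and 2 of 34 in MOLM-13 (5.88%, beside 2.04% of 13026). A gene was called changed when limma on log2(value + 1) gave an adjusted p under 0.1 (Benjamini-Hochberg) with a log2 fold change beyond 0.4 in either direction, and "rose" and "fell" below refer to such calls. Fold changes on this scale understate the change of genes with low values. In HL-60, 12 members rose and 2 fell, where 13.6% of all genes rose and 12.3% fell. In U937, 4 rose and 1 fell (6.92% and 8.74% of all genes), which as a share of members is near the background. In MOLM-13, both called members fell (1.01% of all genes, with 1.03% called higher). The median log2 fold change of the members was 0.15 in HL-60, 0.04 in U937 and 0.17 in MOLM-13, and the median of all genes was between 0.002 and 0.007. At an unadjusted p under 0.05 the members numbered 15, 10 and 11 in the same order, beside 35%, 27.1% and 17% of all genes. The shRNF5 and pLKO values did not overlap for 12 of 31 members in HL-60, beside 38.5% of all genes, with shRNF5 higher in 11, beside 19.9%. They did not overlap for 19 of 33 in U937 (59.2% of all genes), with shRNF5 higher in 10 (29%), and for 15 of 34 in MOLM-13 (38.7%), with shRNF5 higher in 9 (19.6%). A gene whose groups do not overlap is therefore common in these libraries, above all in U937 with 2 libraries per group. No member changed in all 3 lines, 4 changed in 2 lines, 13 in 1 line and 17 in none.

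**Figure D2:**
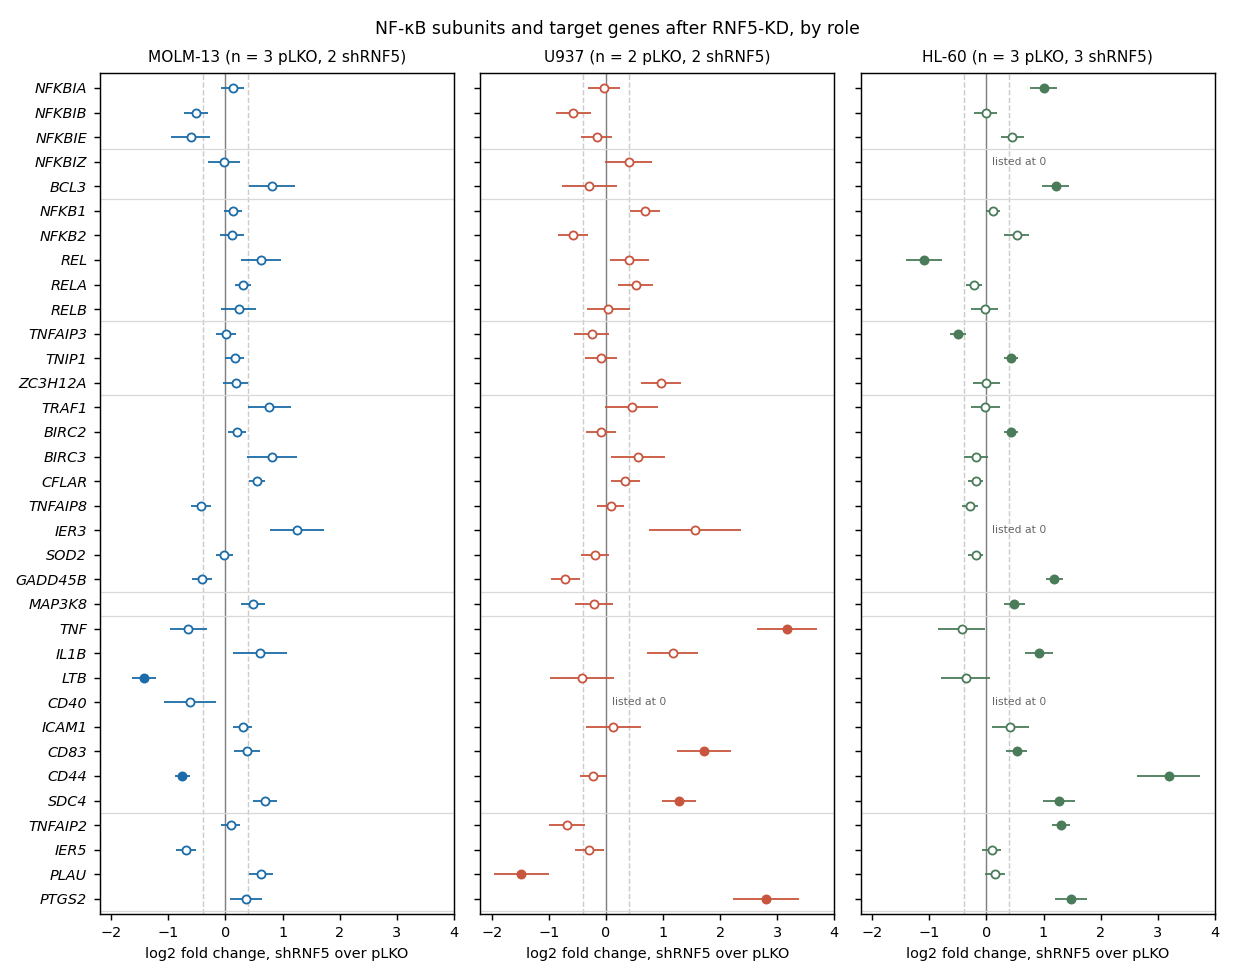
Log2 fold change of shRNF5 over pLKO for each member, grouped by role from inhibitors (top) to other targets (bottom), with standard errors as bars and filled points for called members, and dashed lines at 0.4 either side of 0. HL-60 has 14 filled points, U937 5 and MOLM-13 2.

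Among the IκB inhibitors, NFKBIA rose in HL-60. It encodes IκBα, itself a classical target that returns NF-κB to the cytoplasm, and lies on chromosome 14 from 35870285 to 35873955 of GRCh37, on the reverse strand. Its normalized read count was 313, 532 and 389 in the HL-60 pLKO libraries and 592, 797 and 1108 in the shRNF5 libraries. Every shRNF5 library lay above every pLKO library, with a log2 fold change of 1.00 (SE 0.24, limma adjusted p = 0.0173). In MOLM-13 and U937 the values overlapped, at 716 to 1075 against 922 to 952 and at 463 to 547 against 480 to 498. NFKBIB and NFKBIE, which encode IκBβ and IκBε, passed in no line, with log2 fold changes between -0.61 and 0.45. NFKBIE in HL-60 passed without pLKO replicate 2 (0.59, adjusted p = 0.0757) or without shRNF5 replicate 1 (0.63, adjusted p = 0.0539).

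BCL3, an atypical nuclear IκB that partners p50 and p52 dimers, rose in HL-60. Its values were 60, 116 and 81 with pLKO and 177, 210 and 191 with shRNF5, without overlap (log2 fold change 1.21, SE 0.24, adjusted p = 0.00822). BCL3 was less even elsewhere, at 236 and 87 in the U937 pLKO libraries and 123 and 112 in U937 shRNF5, and at 59 to 146 and 130 to 186 in MOLM-13. NFKBIZ, another nuclear IκB, ranged from 95 to 189 over MOLM-13 and U937 libraries and passed in neither.

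Of the 5 subunits, only REL was called in the fits of single lines, and only in HL-60. REL encodes c-Rel, the subunit known best from lymphoid cells. Its values in HL-60 were 774, 428 and 731 with pLKO and 495, 262 and 192 with shRNF5. The fold change was negative (log2 fold change -1.09, SE 0.32, adjusted p = 0.0372), although pLKO replicate 2 lay below shRNF5 replicate 1. The call was lost without pLKO replicate 1 (-0.94, adjusted p = 0.104), pLKO replicate 3 (-0.98, adjusted p = 0.135) or shRNF5 replicate 3 (-0.79, adjusted p = 0.137). NFKB1, which encodes p105 and p50, had 1024 and 965 with pLKO and 1878 and 1359 with shRNF5 in U937 (0.68, adjusted p = 0.124). NFKB2 had 1165 and 931 against 699 and 697 in U937 (-0.58, adjusted p = 0.18), and 227, 302 and 249 against 291, 340 and 518 in HL-60 (0.53, adjusted p = 0.109). The U937 groups of both genes did not overlap, but neither gene passed, and NFKB2 in HL-60 passed without pLKO replicate 2 (0.64, adjusted p = 0.0825) or shRNF5 replicate 1 (0.70, adjusted p = 0.0505). RELA, the main activating subunit, had log2 fold changes of -0.21 in HL-60, 0.52 in U937 and 0.30 in MOLM-13, with no call. RELB, the partner of p52, gave -0.03, 0.04 and 0.23 in the same order, with no call.

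Of the 3 negative feedback genes, TNFAIP3 fell and TNIP1 rose in HL-60. TNFAIP3 encodes A20, a ubiquitin-editing enzyme that shuts off signalling to the IκB kinase. It had 325, 374 and 357 with pLKO and 238, 258 and 252 with shRNF5 and fell without overlap (log2 fold change -0.49, SE 0.14, adjusted p = 0.0353). TNIP1, which encodes the A20-binding protein ABIN1, had 1432, 1704 and 1312 against 1935, 1863 and 2153 and rose (0.43, SE 0.13, adjusted p = 0.0439). Both changes were small, and each was lost without single libraries. TNFAIP3 did not pass without pLKO replicate 3 (adjusted p = 0.122), nor TNIP1 without pLKO replicate 1 (0.40, adjusted p = 0.131), pLKO replicate 3 (0.34, adjusted p = 0.177) or shRNF5 replicate 3 (0.37, adjusted p = 0.132). ZC3H12A, the RNase Regnase-1 that degrades cytokine mRNAs, had 124 and 159 with pLKO and 246 and 304 with shRNF5 in U937, without overlap but short of the threshold (0.96, adjusted p = 0.111). In HL-60 it had 119, 120 and 90 against 133, 81 and 120 (0.00, adjusted p = 0.995).

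Among the adaptors and survival genes, GADD45B and BIRC2 rose in HL-60 and none was called in the other lines. GADD45B, a stress-induced gene that restrains JNK signalling downstream of NF-κB, lies on chromosome 19 from 2476120 to 2478257 of GRCh37. It had 309, 381 and 315 with pLKO and 698, 730 and 865 with shRNF5 in HL-60. The lowest shRNF5 value was far above the highest pLKO value (log2 fold change 1.19, SE 0.15, adjusted p = 0.00131). In U937 it had 931 and 793 against 521 and 526 (-0.71, adjusted p = 0.114), and in MOLM-13 1117, 878 and 1089 against 759 and 779 (-0.41, adjusted p = 0.27). All shRNF5 libraries thus lay below the pLKO libraries in those lines, and neither difference passed, although U937 passed without pLKO replicate 3 (-0.83, adjusted p = 0.099). BIRC2, which encodes cIAP1, had 675, 645 and 718 against 936, 877 and 925 in HL-60 (0.43, SE 0.12, adjusted p = 0.0303). Its fold change dropped to 0.39, just under the fold threshold, without pLKO replicate 2 (adjusted p = 0.069).

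CFLAR, which encodes the caspase-8 inhibitor c-FLIP, had 2234, 1949 and 2367 with pLKO and 3179 and 3261 with shRNF5 in MOLM-13 (0.56, adjusted p = 0.126). It passed in MOLM-13 only without pLKO replicate 1 among the fits that left out a library (0.58, adjusted p = 0.0721). IER3, an immediate early survival gene, had 40, 27 and 79 against 86 and 131 in MOLM-13 and 28 and 7 against 80 and 24 in U937, short of the threshold in both (adjusted p = 0.243 and 0.239). TRAF1, BIRC3, TNFAIP8 and SOD2 passed in no line, with log2 fold changes from -0.43 to 0.81. SOD2, the mitochondrial superoxide dismutase and a strong NF-κB target, stayed within -0.19 and -0.02 in all 3 lines, where the 95% intervals reached from -0.73 to 0.34.

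MAP3K8, the kinase TPL2 that is held by p105, had 241, 184 and 191 with pLKO and 306, 227 and 342 with shRNF5 in HL-60. The groups overlapped and the call was marginal (log2 fold change 0.49, SE 0.19, adjusted p = 0.0968). It was lost without any one of pLKO replicates 2 and 3 and shRNF5 replicates 1 and 3 (adjusted p = 0.202, 0.254, 0.194 and 0.288). The call was also lost after rescaling of the libraries (adjusted p = 0.102) and after correction for transcript length (adjusted p = 0.104). Nor did it pass without the mean-variance trend (adjusted p = 0.127) or with all lines in one model (adjusted p = 0.12).

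Among the cytokines, TNF rose in U937 and IL1B in HL-60, and LTB fell in MOLM-13. TNF lies on chromosome 6 from 31543342 to 31546113 of GRCh37. In U937, where its basal level was lowest, it had 18 and 16 with pLKO and 229 and 113 with shRNF5. The means differed 10.1-fold without overlap (log2 fold change 3.17, SE 0.53, adjusted p = 0.0179). In MOLM-13 TNF had 2943, 1298 and 2303 against 1155 and 1499, and in HL-60 138, 342 and 175 against 92, 282 and 130. Both sets overlapped, with log2 fold changes of -0.65 (adjusted p = 0.338) and -0.43 (adjusted p = 0.483). IL1B, which encodes IL-1β, had 76, 141 and 93 against 173, 212 and 185 in HL-60 and rose there (0.92, SE 0.24, adjusted p = 0.023). In U937 IL1B had 84 and 168 against 192 and 377, without overlap, and did not pass (1.17, adjusted p = 0.131). LTB, which encodes the membrane anchor of lymphotoxin heterotrimers that signal through the LTβ receptor, had 239, 264 and 261 against 94 and 94 in MOLM-13. It fell there with narrow replicates (-1.43, SE 0.21, adjusted p = 0.0451), and passed in neither U937 (37 and 36 against 27 and 27) nor HL-60 (89 to 191 against 45 to 168).

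Of the surface molecules, CD44, CD83 and SDC4 changed in 2 lines each. CD44, on chromosome 11 from 35160429 to 35253949 of GRCh37, changed in opposite directions. In MOLM-13 it had 5127, 4859 and 5290 with pLKO and 2988 and 3021 with shRNF5, and fell (log2 fold change -0.76, SE 0.13, adjusted p = 0.0647). In HL-60 it had 7, 2 and 6 against 80, 71 and 21, and rose from values near the lower limit of detection (3.19, SE 0.56, adjusted p = 0.00515, 11.5-fold in the means). In U937 it had 3544 and 2993 against 2915 and 2673 and did not pass (-0.22, adjusted p = 0.572). The rise in HL-60 left CD44 far below its level in the other lines.

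SDC4, the heparan sulfate proteoglycan syndecan-4, rose in U937 and HL-60. Its values were 370 and 303 against 983 and 674 in U937 (1.28, SE 0.30, adjusted p = 0.0373). In HL-60 they were 28, 31 and 27 against 61, 57 and 101 (1.27, SE 0.28, adjusted p = 0.0127). In MOLM-13 they were 264, 206 and 192 against 363 and 350 (0.70, adjusted p = 0.174). The shRNF5 libraries lay above the pLKO libraries in all 3 lines, and MOLM-13 passed only without pLKO replicate 1 among the fits that left out a library (0.84, adjusted p = 0.0597). CD83, a marker of activated dendritic cells and B cells, had 80 and 238 against 528 and 398 in U937 and rose (1.72, SE 0.47, adjusted p = 0.0542). In HL-60 it had 174, 201 and 136 against 258, 240 and 233 and rose (0.53, SE 0.18, adjusted p = 0.064), a call that held without pLKO replicate 2 but was lost without each of the other 5 libraries (adjusted p = 0.101 to 0.239). The U937 pLKO libraries differed from each other by a larger factor than replicate 3 did from either shRNF5 library, and the log2 fold change was 0.94 without pLKO replicate 2. ICAM1, an adhesion molecule for leukocyte integrins, had 1386 and 398 in U937 pLKO and 978 and 675 in shRNF5, and passed in no line. CD40, a receptor of the TNF family, was above 0 in MOLM-13 only, with 51, 36 and 90 against 27 and 46, and did not pass (-0.62, adjusted p = 0.518).

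Among the remaining targets, PTGS2 (cyclooxygenase-2, the inducible enzyme of prostaglandin synthesis) rose in U937 and HL-60. Its values were 9 and 11 against 82 and 69 in U937 (log2 fold change 2.80, SE 0.58, adjusted p = 0.0274). In HL-60 they were 20, 25 and 19 against 54, 78 and 53 (1.48, SE 0.28, adjusted p = 0.00687). Neither set overlapped, whereas the MOLM-13 values did (78, 95 and 110 against 102 and 141). TNFAIP2, a TNF-induced gene known for roles in membrane protrusions, had 707, 775 and 794 against 1835, 1506 and 2334 in HL-60 and rose (1.30, SE 0.16, adjusted p = 0.00125). In U937 it had 3612 and 1821 against 1542 and 1651 and passed only without pLKO replicate 3 among the fits that left out a library (-1.18, adjusted p = 0.0643). PLAU, the urokinase plasminogen activator, had 5269 and 1427 against 1212 and 801 in U937 and fell (-1.48, SE 0.49, adjusted p = 0.0876). Without pLKO replicate 2 it was -0.53 (adjusted p = 0.386). IER5, an immediate early gene, had 1543, 1272 and 1184 against 776 and 868 in MOLM-13 (-0.69, adjusted p = 0.12).

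**Figure D3:**
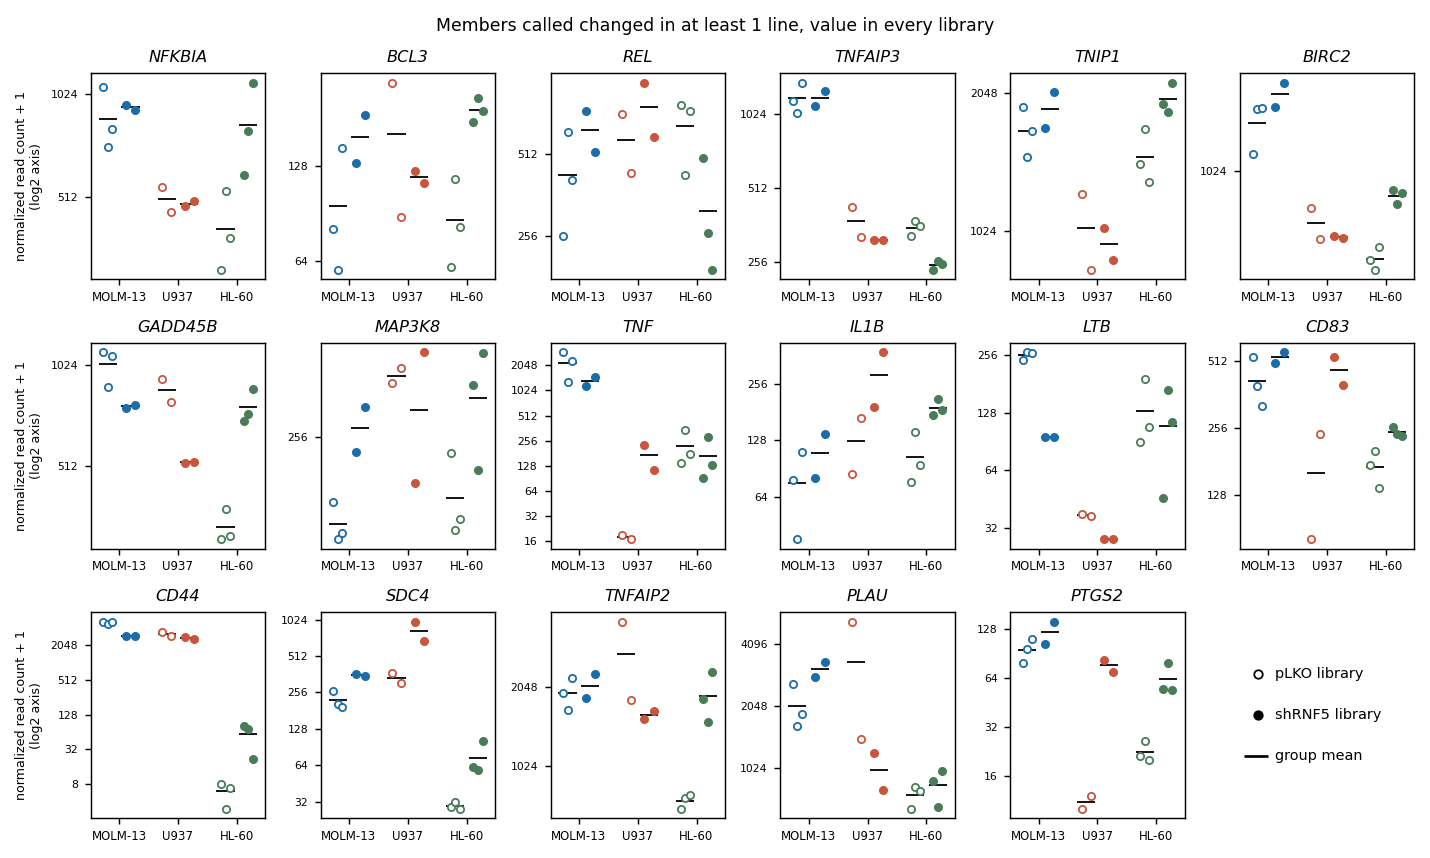
Normalized read count plus 1 on a log2 axis in every library for the 17 members called in at least 1 line, with open points for pLKO, filled points for shRNF5 and bars at group means. TNF and PTGS2 in U937 and CD44, GADD45B and TNFAIP2 in HL-60 show shRNF5 libraries well apart from pLKO libraries.

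The calls in MOLM-13 and U937 changed when single libraries were left out. In MOLM-13, CD44 and LTB kept log2 fold changes of -0.79 to -0.73 and -1.47 to -1.40 whichever library was left out. Both passed without pLKO replicate 1 but not without pLKO replicate 2 (adjusted p = 0.173 for each) or 3 (adjusted p = 0.112 for each). The fits without pLKO replicates 2 and 3 called 1 and 41 of all genes, in place of 266, so their lost calls say little about single members. Both calls were also lost without either shRNF5 library, which leaves 1 library in that arm. Without pLKO replicate 1 the called members numbered 6, and 872 of all genes were called in place of 266. With the replicate numbers of the deposited names as a block, 13 members were called (9 rose, 4 fell), beside 19.2% of all genes. With all lines in one model, CD44 and LTB did not pass in MOLM-13 (adjusted p = 0.428 and 0.112), while CFLAR (adjusted p = 0.0698) and IER5 (adjusted p = 0.058) did. In U937 that model called 12 members, beside 5239 of all genes in place of 2062. Besides the 5 main calls these were NFKB1 (0.68, adjusted p = 0.0104), RELA (0.52, adjusted p = 0.0897), ZC3H12A (0.96, adjusted p = 0.016) and GADD45B (-0.71, adjusted p = 0.00826). The others were IL1B and IER3, which were higher, and TNFAIP2, which was lower. In U937, none of the 5 calls passed without pLKO replicate 2, shRNF5 replicate 1 or shRNF5 replicate 3 (adjusted p = 0.114 to 0.624), and SDC4 was also lost without pLKO replicate 3 (1.14, adjusted p = 0.102). Each of these fits leaves 1 library in an arm, which is assumed to vary like the other arm. Without pLKO replicate 2, shRNF5 replicate 1 or shRNF5 replicate 3, the fits called 0, 0 and 6 genes of all those tested, and RNF5 itself did not pass in the first pair (-3.83, adjusted p = 0.256, and -3.30, adjusted p = 0.292). The lost calls therefore say little about single members, and the fold changes of the 5 kept their direction. Over the 4 fits that each drop a U937 library, TNF kept log2 fold changes of 2.67 to 3.68 and PTGS2 of 2.67 to 2.93. In HL-60, NFKBIA, BCL3, TNFAIP2, CD44, IL1B, SDC4, GADD45B and PTGS2 passed whichever of the 6 libraries was left out. The called members numbered 9 without pLKO replicate 3, where 1970 of all genes were called in place of 3251. IL1B did not pass with all lines in one model (adjusted p = 0.147).

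When the difference of responses was itself tested, 17 members differed in at least 1 pair of lines (limma with all 15 libraries in one model, adjusted p under 0.1 over 11072 genes). Of the 31 members tested in all 3 lines, 16 differed between U937 and HL-60, where 37.2% of all genes did. Between MOLM-13 and HL-60 6 differed (8.82% of all genes), and between MOLM-13 and U937 3 differed (15.4% of all genes). Without U937 shRNF5 replicate 1 the 16 became 7, without U937 pLKO replicate 2, HL-60 pLKO replicate 1 or HL-60 shRNF5 replicate 3 they became 9, and without HL-60 shRNF5 replicate 2 they became 10. Between MOLM-13 and HL-60, 2 differed without either MOLM-13 shRNF5 library, HL-60 pLKO replicate 1 or HL-60 shRNF5 replicate 3 and 3 without HL-60 pLKO replicate 3, and between MOLM-13 and U937, 6 differed without U937 pLKO replicate 3 or shRNF5 replicate 3. Counts over all genes are not given for these fits, so a general loss of calls cannot be told from a loss among members. The differences that held in all 20 alternative fits were those of TNF, CD44, GADD45B and, between U937 and HL-60, TNFAIP2. The log2 fold change of TNF in U937 was higher than in HL-60 by 3.60 (SE 0.65, adjusted p = 0.00176), and that in MOLM-13 minus that in U937 was -3.82 (SE 0.68, adjusted p = 0.0086). For CD44, MOLM-13 minus HL-60 was -3.95 (SE 0.60, adjusted p = 0.00545) and U937 minus HL-60 was -3.41 (SE 0.63, adjusted p = 0.00188). For GADD45B these differences were -1.60 (adjusted p = 0.00382) and -1.90 (adjusted p = 0.000236), and for TNFAIP2 -1.20 (adjusted p = 0.0507, lost in 4 of the 20 fits) and -1.98 (adjusted p = 0.0013). Differences that share a line share its libraries and are not independent of each other.

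PTGS2 rose in both U937 and HL-60 and did so by more in U937 (difference 1.32, SE 0.44, adjusted p = 0.0362). This difference was lost without U937 shRNF5 replicate 1 (1.20) and under the replicate block (1.07). Under that block the U937 response rests on the replicate 3 pair alone. NFKBIA and BCL3 responded more in HL-60 than in U937 (U937 minus HL-60 -1.04, adjusted p = 0.0422, and -1.49, adjusted p = 0.0663). The subunits NFKB1, REL and RELA had more positive fold changes in U937 than in HL-60 (by 0.56, 1.5 and 0.73), whereas NFKB2 had a more negative one (by -1.10, adjusted p = 0.0239). Of these subunit differences, each was lost in at least 1 of the 20 alternative fits, NFKB2 in 1 of them, RELA in 5, REL in 7 and NFKB1 in 11. NFKBIA was lost in 4 of them and BCL3 in 8, each of them without U937 pLKO replicate 2 among others.

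**Figure D4:**
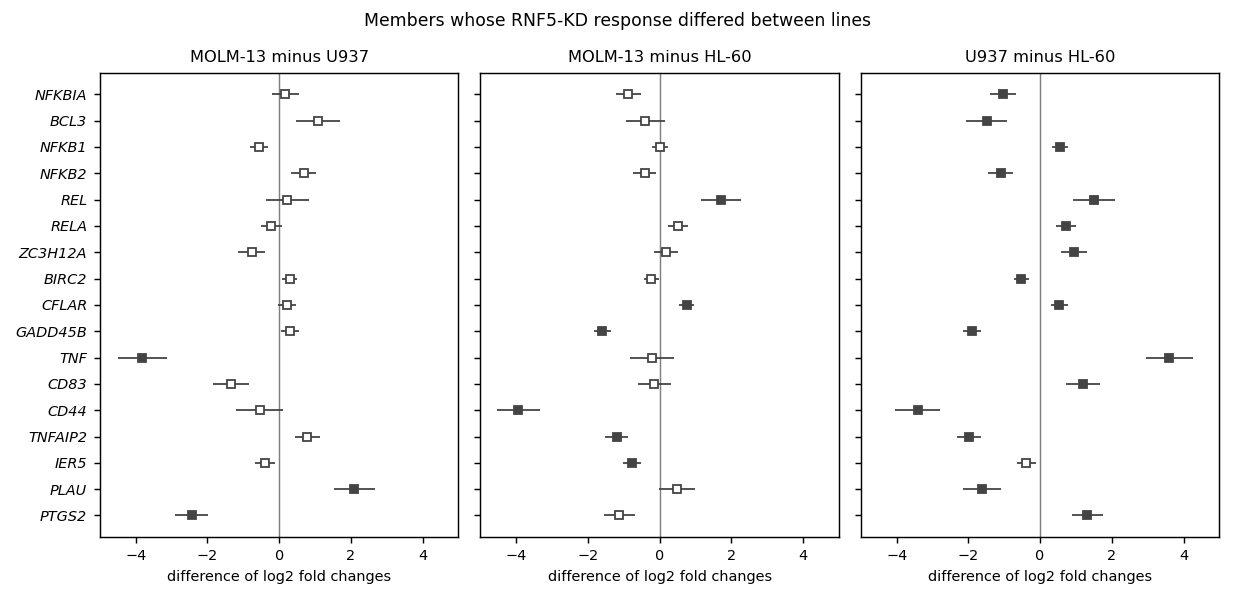
Difference of the RNF5-KD log2 fold changes between pairs of lines for the 17 members that differed in any pair, with standard errors as bars and filled squares at an adjusted p under 0.1. The differences of TNF and CD44 lie farthest from 0, at up to -3.82 and -3.95.

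Among 37 signalling components upstream of NF-κB, 15 of 36 tested genes changed in HL-60 (41.7%, beside 25.9% of all genes), with 9 higher and 6 lower. In U937 6 of 37 changed (5 rose, 1 fell), and this share of 16.2% is near the background of 15.7%. In MOLM-13 0 of 35 changed, where 4 had an unadjusted p under 0.05 in limma and 1 passed in the fit over all libraries. The median log2 fold change was 0.08 in HL-60, 0.23 in U937 and 0.08 in MOLM-13. MYD88, the adaptor of IL-1 and Toll-like receptors, had 282, 336 and 334 against 674, 614 and 705 in HL-60 (1.07, adjusted p = 0.00157). It also rose in U937 (0.87, limma adjusted p = 0.0562) and was not called in MOLM-13 (0.02, limma adjusted p = 0.954). RIPK1, the kinase of the TNF receptor complex, rose in HL-60 (314, 305 and 305 against 559, 607 and 525) and in U937 (357 and 333 against 794 and 690). IL1R1, the IL-1 receptor, had 16 and 19 against 99 and 97 in U937 (2.42, adjusted p = 0.0286), and IKBKE, an IκB kinase relative, 233 and 270 against 750 and 658 (1.48, adjusted p = 0.0223). In each of these comparisons with values given, the shRNF5 libraries lay above the pLKO libraries. TRAF5, an adaptor of TNF family receptors, fell in HL-60 (42, 25 and 52 against 24, 10 and 16, log2 fold change -1.22, adjusted p = 0.0532). The U937 calls were lost without pLKO replicate 2, shRNF5 replicate 1 or shRNF5 replicate 3, fits that leave 1 library in an arm. The HL-60 calls numbered 7 without pLKO replicate 3 and 8 without shRNF5 replicate 3. Those HL-60 fits called 1970 and 1991 of all genes, in place of 3251.

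Of 40 further NF-κB targets, 22 were tested in HL-60 (2 rose, 3 fell), 24 in U937 (3 rose, 1 fell) and 21 in MOLM-13 (1 rose, 1 fell), with medians of -0.02, 0.06 and 0.11. The called shares were 22.7% in HL-60 and 16.7% in U937, near the backgrounds of 25.9% and 15.7%, and 9.52% in MOLM-13, beside 2.04%. CCL2, the monocyte chemoattractant, had 75 and 193 against 1819 and 1647 in U937 (3.83, adjusted p = 0.00287) and 526, 1023 and 1067 against 136, 470 and 155 in HL-60 (-1.95, adjusted p = 0.0111). It rose in one line and fell in the other, a difference that was not tested because CCL2 was not above 0 in all 3 lines. IL8, the neutrophil chemoattractant, had 112 and 82 against 1110 and 451 in U937 (2.87, adjusted p = 0.0144) and fell in HL-60 (-0.92, SE 0.28, adjusted p = 0.0413). For IL8, U937 minus HL-60 was 3.79 (SE 0.73, adjusted p = 0.00238). NINJ1, a mediator of membrane rupture, rose in U937 (172 and 115 against 306 and 369). In HL-60, TNFSF9, the ligand of 4-1BB, had 21, 58 and 40 against 94, 73 and 192 (1.56, adjusted p = 0.0257). BCL2A1, an anti-apoptotic BCL2 relative, had 34, 37 and 35 against 9, 8 and 21 there (-1.53, adjusted p = 0.022). Its fold change was also negative, though not called, in MOLM-13 (-1.43, limma adjusted p = 0.157) and U937 (-1.01, adjusted p = 0.106). No difference of its response between lines passed (limma adjusted p = 0.54 to 0.937). The paper names BCL2A1 among the genes lowered in all 3 lines. In MOLM-13, CXCL10, an interferon-induced chemokine, had 51, 73 and 92 against 290 and 261 (1.96, adjusted p = 0.0508), and the immunoproteasome subunit PSMB9 633, 497 and 579 against 262 and 256 (-1.13, adjusted p = 0.0622). In the lines whose library values are given, the groups of NINJ1, TNFSF9, BCL2A1, CXCL10 and PSMB9 did not overlap. The U937 calls in this list were lost without pLKO replicate 2 or either shRNF5 library, fits that leave 1 library in an arm. In HL-60, 3 passed without shRNF5 replicate 3, where 1991 of all genes were called in place of 3251. In MOLM-13, 1 passed without pLKO replicate 3 and 0 without pLKO replicate 2, where 41 and 1 of all genes were called in place of 266. The MOLM-13 calls were also lost without either shRNF5 library, which leaves 1 library in that arm.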

How the data were processed

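RNA-seq libraries of MOLM-13, U937 and HL-60 were grouped by construct and replicate number in the labels. Per the labels and methods, the authors used STAR to map reads to hg19, featureCounts (Subread) to count them, and edgeR within SARTools to normalize each line. What they deposited is a score: normalized counts rounded to whole numbers, with filtered genes at 0. The labels name a 3′ kit and the methods a directional poly(A) kit. As these are not raw counts, limma 3.58.1 in R 4.3.3 was fitted to log2(value + 1), using empirical Bayes moderation with a trend of variance on mean, on all genes above 0 in any library of a line. Procedures were tested on simulated data. Depth (9720000 to 63800000 reads) was inferred from the steps between rounded values, and low values are the least precise. Counting intervals were not computed, because values are scaled. No 2 libraries held identical values. Members and lists were chosen with earlier results of these data known. Named genes are RNF5, members with values, and the 3 largest called changes per pathway list and line. Gene positions are from GENCODE on GRCh37, promoters from RefSeq (GRCh38.p14). Alternatives included pseudocounts of 0.5 and 10, a mean of at least 50, rescaling, length correction, replicate blocks and leaving out each library.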

Additional observations from a re-analysis of the deposited data

Results flagged for a closer look

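These results were singled out because a test of the difference itself found that the RNF5-KD response of a member differed between 2 lines (limma, all 15 libraries, adjusted p under 0.1). Each value is a difference of log2 fold changes, and no explanation was weighed. For U937 minus HL-60, the differences were -1.04 for NFKBIA, 0.56 for NFKB1, -1.10 for NFKB2, 1.5 for REL, 0.73 for RELA, -1.49 for BCL3 and -1.98 for TNFAIP2. In the same pair they were -0.52 for BIRC2, 1.19 for CD83, -3.41 for CD44, 0.54 for CFLAR, 3.60 for TNF, -1.62 for PLAU, -1.90 for GADD45B, 1.32 for PTGS2 and 0.95 for ZC3H12A. For MOLM-13 minus HL-60, they were 1.71 for REL, -1.20 for TNFAIP2, -3.95 for CD44, 0.76 for CFLAR, -0.78 for IER5 and -1.60 for GADD45B. For MOLM-13 minus U937, they were -3.82 for TNF, 2.10 for PLAU and -2.44 for PTGS2.

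Without U937 pLKO replicate 2, U937 minus HL-60 was -0.68 (adjusted p = 0.197) for PLAU and 0.41 (adjusted p = 0.44) for CD83. Under the replicate block these were -0.98 and 0.21. That block is among the 20 alternative fits, and in it the U937 response rests on the replicate 3 pair alone. Over the 20 alternative fits this difference was lost in 3 for PLAU and 7 for CD83, and that of PLAU between MOLM-13 and U937 in 4. Of the 25 differences, 7 held in all 20 alternative fits, namely both for TNF, both for CD44, both for GADD45B and U937 minus HL-60 for TNFAIP2. The differences of NFKB1, CFLAR (U937 minus HL-60), IER5 and BIRC2 were lost in 11, 10, 9 and 9 of the 20 fits.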

How the results depend on the processing

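Leaving out each library in turn, the called members ranged from 0 to 6 in MOLM-13, 0 to 6 in U937 and 9 to 14 in HL-60. The called upstream genes ranged from 0 to 1, 0 to 5 and 7 to 18, the called further targets from 0 to 2, 0 to 5 and 3 to 7, and the log2 fold change of RNF5 from -3.81 to -3.68, -3.98 to -3.30 and -3.82 to -2.91. Members that differed between lines ranged from 2 to 6 (MOLM-13 and U937), 2 to 8 (MOLM-13 and HL-60) and 7 to 16 (U937 and HL-60). With each HL-60 library left out in turn, 1970 to 3413 of all genes were called in HL-60, in place of 3251. Without the mean-variance trend, 1 member and 1 further target were called in MOLM-13, and 2 members, 2 upstream genes and 2 further targets in U937. Of all genes, 55 and 475 were then called in these lines, in place of 266 and 2062. At an adjusted p under 0.05 the same counts were 1 and 0 in MOLM-13 and 3, 3 and 2 in U937, beside 39 and 824 of all genes. One fit over all libraries called 12 members, 12 upstream genes and 10 further targets in U937, beside 5239 of all genes. In MOLM-13 it called 1 upstream gene, beside 598 of all genes. The cause of these shifts was not tested. Pseudocounts, the mean filter, rescaling and length correction kept the counts of called members within 1.5 times. No called value changed sign. The depth limits members with low values, such as CD44 in HL-60.

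The replicate numbers were not treated as pairing the libraries, since not every same-numbered pair correlated. Deviations of same-numbered libraries correlated at -0.173 and -0.53 in MOLM-13 and at 0.505, 0.156 and -0.109 in HL-60, and U937 shares 1 number only. With MOLM-13 shRNF5 numbered 2 and 3, as the deposited names have it, its pairs correlated at 0.53 and 0.281. The deviations of 2 shRNF5 libraries from their mean mirror each other, so the 0.53 is the -0.53 above with its sign reversed. The correlations under the 2 numberings are therefore not separate evidence in MOLM-13. In MOLM-13, the replicate block by the labels' numbers called 5 members (1 rose, 4 fell) and 738 of 13026 genes. The block by the deposited names called 13 members (9 rose, 4 fell), 3 upstream genes, 4 further targets and 2495 genes, in place of 266 genes without a block. Under the block by the labels' numbers, fewer members differed for U937 against HL-60 and for MOLM-13 against U937. In those pairs the U937 response rests on the replicate 3 pair alone. For MOLM-13 against HL-60, 8 members differed in place of 6. In HL-60, the block called 17 members in place of 14, beside 3580 of all genes in place of 3251.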
